A study of Mus musculus with 2 samples.

Results

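Notch signalling runs between touching cells. A ligand on one cell (a Delta-like or a Jagged protein) binds a Notch receptor on its neighbour, the receptor is cut, and its inner part enters the nucleus, where it joins the DNA-binding protein RBPJ and switches on target genes, chiefly repressors of the Hes and Hey families. In the brain the pathway is best known for keeping neural stem cells and glial precursors undifferentiated, for the choice between arterial and venous fate in endothelium, and for the upkeep of mural cells, the pericytes and smooth muscle that wrap vessels. The 10 genes described here were picked by symbol. They are the receptors *Notch1*, *Notch2* and *Notch3*, the ligands *Dll1*, *Dll4* and *Jag1*, and the targets *Hes1*, *Hes5*, *Hey1* and *Heyl*, 10 of the 32285 genes in each count matrix, and all 10 were found in both. On build GRCm38 the receptors lie at chr2:26457903-26516663 (*Notch1*), chr3:98013527-98150361 (*Notch2*) and chr17:32120820-32166852 (*Notch3*), and the ligands at chr17:15367354-15376872 (*Dll1*), chr2:119325784-119335962 (*Dll4*) and chr2:137081456-137116644 (*Jag1*). The targets lie at chr16:30064384-30067796 (*Hes1*), chr4:154960923-154962371 (*Hes5*), chr3:8663359-8667256 (*Hey1*) and chr4:123233556-123249875 (*Heyl*).

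The data came from 2 single-cell libraries of striatum from untreated adult mice aged 8 to 10 weeks, labelled C57/Bl6J and glia enriched, with no transgene or treatment given for either. The sources differ on strain and age, since the protocol names C57BL/6NTac mice and the series' own text a narrower age range. The labels call them replicate 1 and replicate 2 (here library 1 and library 2) and do not say how many animals each held, so the spread between them may be technical. The paper's methods name male mice, and a number of mice, for its single-cell work, but tie none of them to a library. The tissue was cut into slices, digested with pronase and cleared of debris, and RNA was captured at its 3′ end, with 2 versions of the capture kit named but not tied to a library. By the paper's methods, the solutions for slice recovery, digestion and breaking up the tissue held actinomycin D, against transcriptional changes from stress. Its part in the levels below was not tested. Library 1 held 6978 barcodes and 44597660 UMIs (unique molecular identifiers, each a captured RNA molecule), and library 2 held 5437 barcodes and 37982720 UMIs. They shared 9 barcodes. After filtering, 12007 cells were left, 6802 and 5205.

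Cells were clustered without the 10 genes and without 49 other genes of the pathway, and clusters were named from other markers, so that no class below was defined by a Notch gene. The classes were astrocyte-like (2567 cells), oligodendrocyte-like (2405), microglia-like (2140), neuroblast-like (1669), endothelial-like (1405), oligodendrocyte precursor (OPC)-like (641), mural-like (553), neuron-like (361) and macrophage-like (169). An erythroid-like class of 97 cells had 11 in library 2 and entered no test. Some classes held clusters with markers of another. Within the mural-like class 63 cells carried endothelial markers and 51 were fibroblast-like. Within the endothelial-like class 57 cells carried microglia, oligodendrocyte and pericyte markers, and within the neuroblast-like class 75 cells carried OPC markers and 96 were ependymal-like. The cluster of neuroblast-like cells also had 7 of 7 markers of dividing progenitors raised, and the macrophage-like cluster 4 of 4 markers of T or NK cells. At a finer clustering, resolution 0.32, 280 astrocyte-like cells were named neuron-like and 274 oligodendrocyte-like cells OPC-like. There 449 progenitor-like and 151 ependymal-like cells left the neuroblast-like class, and 57 fibroblast-like cells left the mural-like class. The progenitor-like, ependymal-like and fibroblast-like groups then each stood as a class of its own. The 280 cells were counted with the neuron-like class and the 274 cells with the OPC-like class. Clusters of the divided classes that carried markers of another class, or were ependymal-like or fibroblast-like, were left out in 1 alternative. They held 38.3% and 42.9% of the mural-like UMIs in libraries 1 and 2. In endothelial-like cells these shares were 8.19% and 6.21%, and in neuroblast-like cells 8.13% and 15.4%. Levels and tests of these classes include such clusters unless stated, and values without them are given beside some of the results below. The neuroblast-like class was 17.3% of cells in library 1 and 9.51% in library 2.

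The promoters of 3 members are shown because the gene products stand at different steps of the pathway and mark different classes below. The target *Hes5* had its highest mean level in astrocyte-like cells, the receptor *Notch3* in mural-like cells and the ligand *Dll4* in endothelial-like cells. Each promoter runs from 250 bases before to 50 bases after a transcription start in RefSeq, on build GRCm38. The letters searched were TGGGAA and their reverse complement TTCCCA, the core bound by RBPJ, on both strands, and a match is in capitals. *Hes5* lies at chr4:154960673-154960972 (plus strand), *Notch3* at chr17:32166841-32167140 (minus strand) and *Dll4* at chr2:119325534-119325833 (plus strand).
Hes5: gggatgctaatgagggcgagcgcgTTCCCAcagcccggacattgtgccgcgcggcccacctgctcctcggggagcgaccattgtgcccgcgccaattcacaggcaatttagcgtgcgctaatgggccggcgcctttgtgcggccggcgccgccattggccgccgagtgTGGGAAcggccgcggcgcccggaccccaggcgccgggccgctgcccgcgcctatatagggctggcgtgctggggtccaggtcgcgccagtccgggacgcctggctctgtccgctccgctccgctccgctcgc
Notch3: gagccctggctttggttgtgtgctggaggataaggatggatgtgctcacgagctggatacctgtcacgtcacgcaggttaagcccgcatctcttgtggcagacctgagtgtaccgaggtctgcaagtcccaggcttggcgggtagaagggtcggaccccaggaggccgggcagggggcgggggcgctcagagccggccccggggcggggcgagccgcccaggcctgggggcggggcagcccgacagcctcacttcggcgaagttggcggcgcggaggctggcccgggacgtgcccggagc
Dll4: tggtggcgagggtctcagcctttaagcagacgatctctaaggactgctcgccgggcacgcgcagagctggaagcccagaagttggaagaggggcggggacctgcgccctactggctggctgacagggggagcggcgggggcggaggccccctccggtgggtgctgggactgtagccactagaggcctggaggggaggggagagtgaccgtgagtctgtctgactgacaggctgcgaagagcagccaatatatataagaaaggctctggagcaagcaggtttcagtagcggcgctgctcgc

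The *Hes5* window held 2 matches, beginning 226 and 82 bases before the start, on opposite strands. None of the other 7 member promoters found in the table (*Notch1*, *Notch2*, *Notch3*, *Jag1*, *Dll4* and both starts of *Dll1*) held one, which says only that these letters are not in these windows. Of 32851 promoters of the same length, 25.6% held at least 1 match and 3.79% held 2 or more. *Hes1*, *Hey1* and *Heyl* were not in the table.

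Levels are given as CPM, the UMIs of a gene per 1000000 UMIs of all genes in a class, library 1 before library 2. They compare classes for 1 gene, not genes with each other. A difference between classes is the log2 fold change from edgeR's quasi-likelihood test on counts summed per library and class. The test gives no standard error. The one printed was worked back as the absolute log2 fold change divided by the square root of the F statistic, so it is approximate. A gene was called at a Benjamini-Hochberg adjusted p under 0.05. The library was a block in the fit, so a shift shared by all classes of a library was taken out. With 2 libraries these p-values measure only how far class differences varied between these libraries, by a spread shared over the classes fitted.

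**Figure D1:**
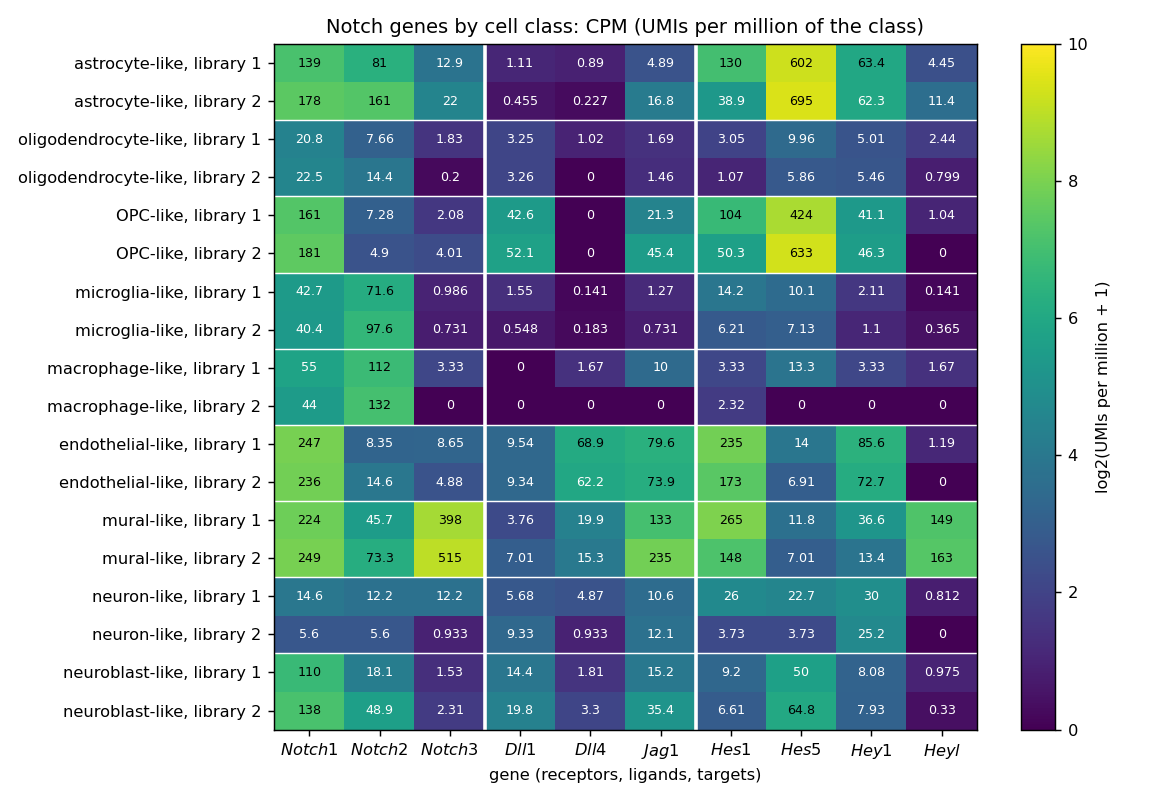
Heat map of the 10 genes (columns) in the 9 classes of each library (rows), coloured by log2(CPM + 1), with the CPM printed in each cell. *Notch3* and *Heyl* stand out in the mural-like rows (398 and 515, 149 and 163), *Dll4* in the endothelial-like rows (68.9 and 62.2) and *Hes5* in the astrocyte-like and OPC-like rows (602 and 695, 424 and 633).

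*Notch1*, the most widely used receptor of the family, was found in all 9 classes. Its level was 247 and 236 CPM in endothelial-like, 224 and 249 in mural-like, 161 and 181 in OPC-like, 139 and 178 in astrocyte-like and 110 and 138 in neuroblast-like cells. The first 2 classes overlapped, as did OPC-like and astrocyte-like cells, and astrocyte-like and neuroblast-like cells nearly met. Without clusters that carried markers of another class, the first 2 did not overlap, at 254 and 239 CPM in endothelial-like and 194 and 220 in mural-like cells. Levels were 55 and 44 CPM in macrophage-like, 42.7 and 40.4 in microglia-like, 20.8 and 22.5 in oligodendrocyte-like and 14.6 and 5.6 in neuron-like cells. All 4 of these lay under every library of the first 5 classes. Against the mean of the other classes, neuron-like cells were lower by the widest margin of any class for this gene (log2 fold change -3.54 ± 0.24, adjusted p = 2.1e-09).

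*Notch2*, a receptor known for its part in myeloid and smooth muscle cells, had another order. It was at 112 and 132 CPM in macrophage-like, 81 and 161 in astrocyte-like, 71.6 and 97.6 in microglia-like and 45.7 and 73.3 in mural-like cells. These 4 classes overlapped with their neighbours in that order. OPC-like cells had 7.28 and 4.9 CPM and endothelial-like cells 8.35 and 14.6. Relative to the other classes it was higher in macrophage-like (2.5 ± 0.26), microglia-like (2.13 ± 0.17), astrocyte-like (2.15 ± 0.17) and mural-like cells (1.01 ± 0.22, adjusted p = 0.00135). Its level was higher in library 2 in 7 of the 7 classes with at least 20 UMIs in each library, by 1.18 to 2.70 times. The part of the kit version in this was not tested.

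*Notch3*, the receptor of vascular mural cells, was at 398 and 515 CPM in mural-like cells and at most 22 CPM in any library of the other 8 classes. That maximum was in astrocyte-like cells, at 12.9 and 22 CPM. The mural-like difference from the other classes was 6.84 ± 0.23 (adjusted p = 1.54e-13), from levels that were 492 and 686 CPM without clusters that carried markers of another class, and the astrocyte-like one was 1.62 ± 0.34 (adjusted p = 0.00067).

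Among ligands, *Dll4*, the Delta ligand of endothelium, was at 68.9 and 62.2 CPM in endothelial-like cells. It was at 19.9 and 15.3 CPM in mural-like cells, but at 1.74 and 2.23 there once clusters with markers of another class were left out. In OPC-like cells no UMI of *Dll4* was found in either library. *Dll1*, a ligand of neural and glial precursors, was at 42.6 and 52.1 CPM in OPC-like cells, 14.4 and 19.8 in neuroblast-like, 9.54 and 9.34 in endothelial-like and 5.68 and 9.33 in neuron-like cells, and in none of the other classes above 7.01 CPM. The OPC-like libraries lay above all others and the neuroblast-like ones above the remaining classes. *Jag1*, a Jagged ligand of vessel walls and of precursors, was at 133 and 235 CPM in mural-like and 79.6 and 73.9 in endothelial-like cells. It was at 21.3 and 45.4 CPM in OPC-like and 15.2 and 35.4 in neuroblast-like cells, which overlapped.

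Among targets, *Hes5*, the Hes gene of neural progenitors and glia, was at 602 and 695 CPM in astrocyte-like cells and 424 and 633 in OPC-like cells, which overlapped. Neuroblast-like cells had 50 and 64.8 CPM, but 19.9 and 30.8 without clusters that carried markers of another class, and oligodendrocyte-like cells 9.96 and 5.86. Relative to the other classes it was higher by 4.94 ± 0.20 in astrocyte-like (adjusted p = 2.57e-12) and by 4.23 ± 0.22 in OPC-like cells (adjusted p = 5.96e-11). *Hes1*, the more widely used Hes repressor, was at 265 and 148 CPM in mural-like, 235 and 173 in endothelial-like, 130 and 38.9 in astrocyte-like and 104 and 50.3 in OPC-like cells. The first 2 of these classes overlapped and so did the last 2. *Hes1* was lower in library 2 in all 6 classes with at least 20 UMIs in each library, at 0.30 to 0.738 of its level in library 1, the reverse of *Notch2*.

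*Hey1*, a Hey repressor of arterial endothelium, was at 85.6 and 72.7 CPM in endothelial-like, 63.4 and 62.3 in astrocyte-like, 41.1 and 46.3 in OPC-like, 36.6 and 13.4 in mural-like and 30 and 25.2 in neuron-like cells. The first 3 classes did not overlap. The mural-like level fell to 13.1 and 3.35 CPM without clusters that carried markers of another class. *Heyl*, a target paired with *Notch3* in vascular smooth muscle, was at 149 and 163 CPM in mural-like cells (176 and 220 without such clusters) and 4.45 and 11.4 in astrocyte-like cells. Endothelial-like cells gave 4 UMIs of it in library 1 and none in library 2.

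Counted over the 9 classes, 34 of 90 tests of a member against the mean of the other classes were called higher and 28 were called lower, beside 27.5% and 22.2% of all tests of the 15300 genes. The mural-like class had 8 of 10 members higher (22.9% of all genes), astrocyte-like 7 (26.5%), endothelial-like 6 (26.6%), OPC-like 6 (26.0%), neuroblast-like 4 (32.0%), microglia-like 1 (34.3%), macrophage-like 1 (18.0%), neuron-like 1 (26.5%) and oligodendrocyte-like 0 (34.8%). The member called higher in microglia-like and in macrophage-like cells was *Notch2*, and in neuron-like cells the call was *Hey1* (0.66 ± 0.27, adjusted p = 0.0493), which was made in 7 of the 11 settings that gave a test, with adjusted p up to 0.666. Of the 4 members higher in neuroblast-like cells, *Jag1* was called in 4 of the 11 settings that gave a test, with adjusted p up to 0.251. *Notch1*, *Jag1* and *Hes5* turned at resolution 0.32 (*Jag1* not called) and *Dll1* lost its call there. At that resolution progenitor-like and ependymal-like cells stood among the other classes, so the comparison was between different groups of cells. *Notch1* was then at 158 and 181 CPM in progenitor-like and 47.4 and 49 in neuroblast-like cells. Of the mural-like calls, that of *Hey1* turned after thinning and without clusters that carried markers of another class. Oligodendrocyte-like cells were lower for 7 members, all but *Dll1*, *Dll4* and *Heyl*, beside 3539 of the 15300 genes lower in that class. This comparison has no finite value for a gene with 0 UMIs in a whole class, which was so for *Dll1* (macrophage-like) and *Dll4* (OPC-like), and their calls carry no weight here. Without such genes, a choice made after the values were seen, 29 of 72 tests of 8 members were higher and 27 lower, beside 28.4% and 27.4% of the tests of 12405 genes. By class, 7 of 8 were then higher in mural-like (21.8% of all genes) and 7 in astrocyte-like cells (26.4%). OPC-like cells had 5 (24.9%), endothelial-like 4 (29.0%) and neuroblast-like 3 (32.4%). Microglia-like (39.2%), macrophage-like (18.6%) and neuron-like cells (23.8%) had 1 each and oligodendrocyte-like cells 0 (39.7%). In oligodendrocyte-like cells 7 of 8 were lower, beside 29.1% of all genes.

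**Figure D2:**
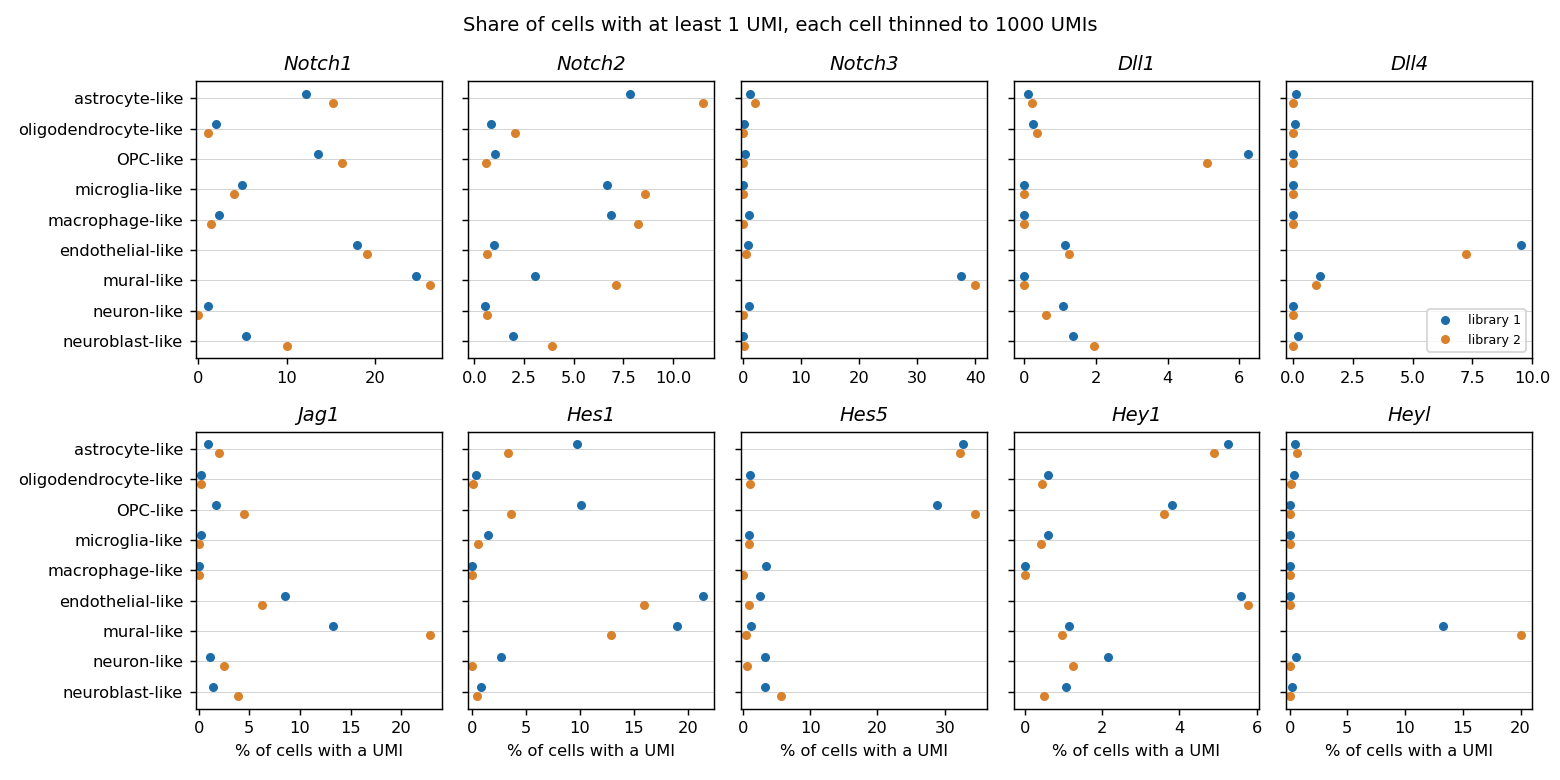
Share of cells (%) with at least 1 UMI of each gene in each class after every cell was thinned to 1000 UMIs, 1 panel per gene, 1 point per library. *Notch3* reaches 37.5% and 40% of mural-like cells and *Hes5* 32.7% and 32.3% of astrocyte-like cells.

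Shares of cells were compared at 1 depth, because median UMIs per cell ran from 1624 and 2370 in astrocyte-like to 11284 and 12138.5 in oligodendrocyte-like cells. Thinning to 1000 UMIs left out 1491 shallower cells. *Hes5* had a UMI in 32.7% and 32.3% of thinned astrocyte-like cells and 28.8% and 34.5% of OPC-like cells, against 1.11% and 1.03% of oligodendrocyte-like cells, a class not known for it. Unthinned, the astrocyte-like and oligodendrocyte-like shares were 42.8% and 52.6% against 9.14% and 6.27%. *Notch3* had a UMI in 37.5% and 40% of thinned mural-like cells and *Heyl* in 13.3% and 20%. *Dll4* had one in 9.52% and 7.23% of endothelial-like cells and *Dll1* in 6.25% and 5.11% of OPC-like cells. The class with the highest mean level stayed the same after thinning for 7 of 10 members. For *Notch1* it became mural-like, for *Notch2* astrocyte-like and for *Hes1* endothelial-like, all among classes whose levels overlapped with all clusters included.

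The first pair of classes set the mural-like cells against the endothelial-like cells, the sides of the vessel wall between which Notch signals pass. Of the 10 members, 4 were higher in mural-like cells and 2 lower, beside 27.3% of all genes called in either direction. The receptors *Notch3* (5.80 ± 0.44, adjusted p = 3.95e-08) and *Notch2* (2.20 ± 0.34, adjusted p = 7.92e-05) were higher, as was *Heyl* (6.93 ± 0.54, adjusted p = 5.6e-08). *Jag1* was higher by 1.03 ± 0.31 (adjusted p = 0.0201), and lost its call with DESeq2 (adjusted p = 0.152) and without the library term (adjusted p = 0.0784). *Dll4* was lower by a log2 fold change of -2.0 ± 0.40 (adjusted p = 0.00119), which was -4.85 without clusters that carried other markers and lost its call with DESeq2 (adjusted p = 0.114). *Hey1* was lower too (-1.76 ± 0.27, adjusted p = 9.09e-05). Without clusters that carried other markers the values were 7.05 for *Notch3*, 8.09 for *Heyl*, 2.43 for *Notch2*, 1.51 for *Jag1* and -3.21 for *Hey1*. *Notch1* (-0.17 ± 0.18) and *Hes1* (-0.17 ± 0.23) were not called.

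**Figure D3:**
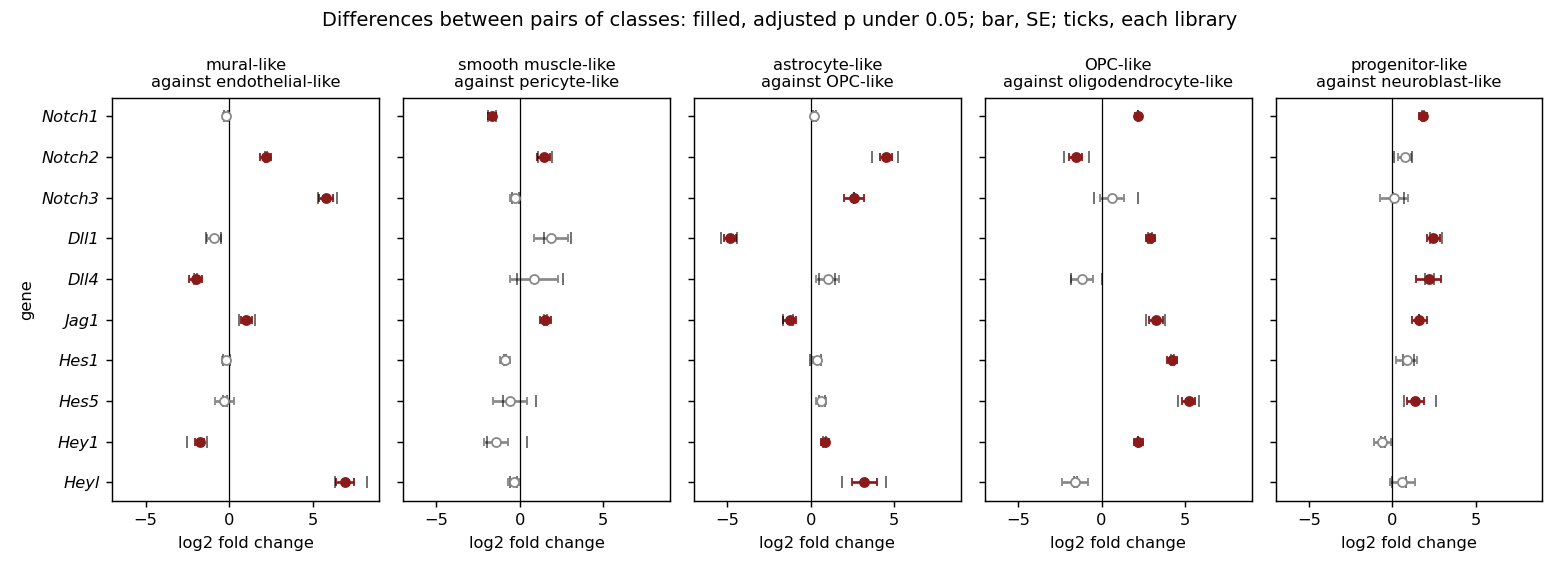
Log2 fold change of each gene (rows) between 5 pairs of classes, with the standard error as a bar, each library as a tick, and filled points for an adjusted p under 0.05. *Notch3* (5.80) and *Heyl* (6.93) lie far to the right in the mural-like against endothelial-like panel.

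Clustering each vessel class alone divided it further. Arterial-like (267 cells), capillary-like (511) and venous-like (79) endothelial clusters and pericyte-like (166) and smooth muscle-like (113) clusters were named from markers that hold no Notch gene. The capillary-like name is the weakest, as it rests on 4 of 7 markers being highest there without passing the fold limit. The leading genes of that cluster, *Angpt2*, *Fgfbp1* and *Apln* first, were not among its markers. Shallow clusters of 331 and 160 endothelial-like cells and of 160 mural-like cells were left undivided and out of these comparisons. *Hey1* was at 166 and 182 CPM in arterial-like and 63.4 and 36.4 in capillary-like cells, and venous-like cells gave 1 UMI in library 1 and none in library 2. The arterial-like difference from capillary-like cells was 1.71 ± 0.25 (adjusted p = 7.16e-05). It was the 1 member of 10 called there, beside 1.67% of all genes. *Dll4* was at 84.7 and 66.4 CPM in arterial-like, 77.4 and 75.7 in capillary-like and 13 and 20.7 in venous-like cells. The arterial-like and capillary-like levels overlapped, and both lay above the venous-like libraries. *Notch1* was at 358 and 307, 227 and 212, and 132 and 197 CPM in the same order, and its arterial-like difference from capillary-like cells was not called (0.55 ± 0.20, adjusted p = 0.263).

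Smooth muscle-like and pericyte-like cells both carried *Notch3*, at 411 and 493 CPM against 554 and 901. *Heyl* was at 134 and 194 CPM against 266 and 285. Neither difference was called. *Jag1* was higher in smooth muscle-like cells, at 208 and 403 against 87 and 193 CPM (1.52 ± 0.34, adjusted p = 0.00171), and *Notch2* was higher at 61.2 and 99.8 against 19.9 and 61 CPM (1.42 ± 0.38, adjusted p = 0.00782). The *Notch2* call was lost without the library term (adjusted p = 0.0907), with library sizes alone (adjusted p = 0.0549) and after thinning (adjusted p = 0.116). *Notch1* was lower, at 93.4 and 92.3 against 326 and 451 CPM (-1.66 ± 0.24, adjusted p = 4.44e-06). These 3 of 10 members stand beside 15.0% of all genes called. *Hes1* was lower in both libraries but not called (-0.88 ± 0.31, adjusted p = 0.0519). It was called in 6 of the 9 settings that gave a test.

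**Figure D4:**
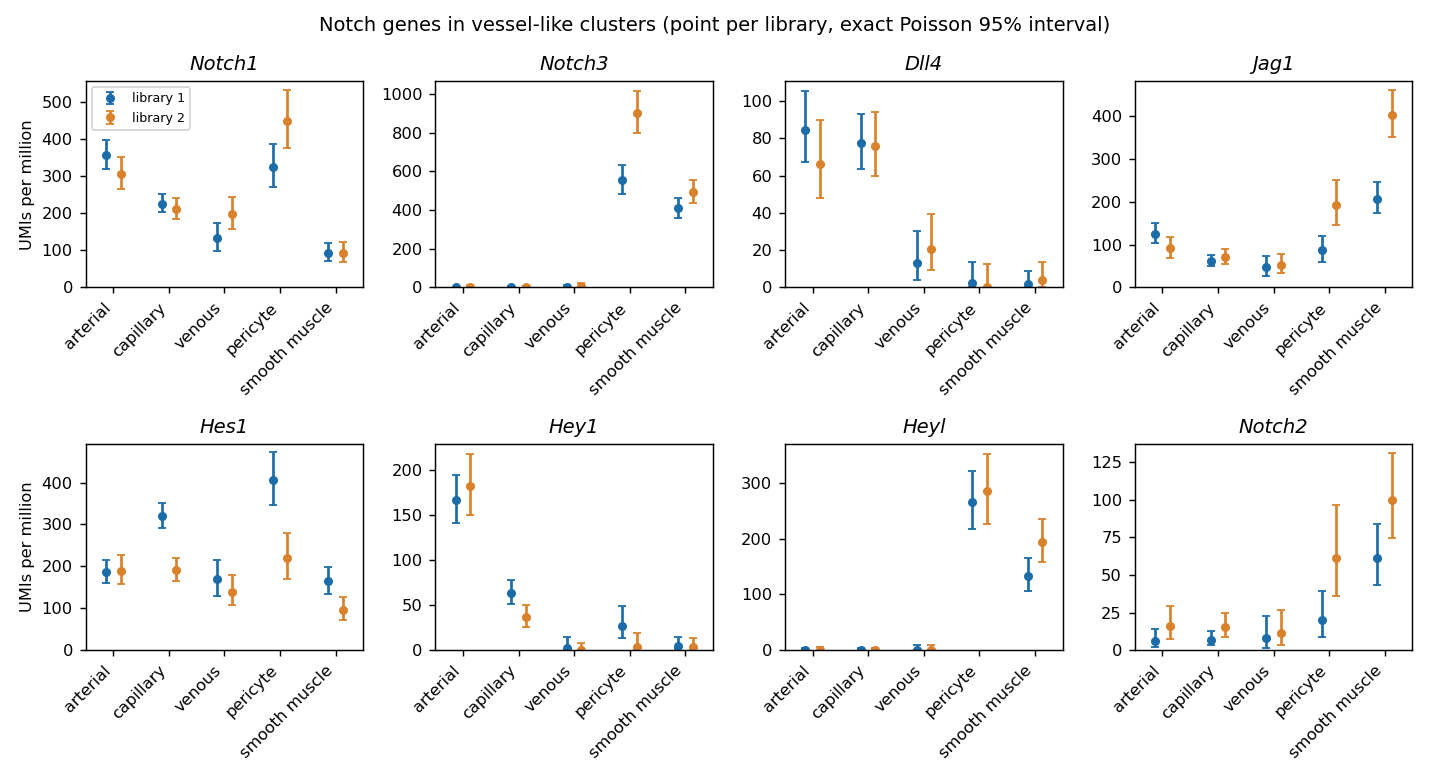
CPM of 8 Notch genes in 5 vessel clusters, a point per library with its exact Poisson 95% interval, which covers counting error only. *Hey1* is at 166 and 182 in arterial-like cells, and *Jag1* at 208 and 403 in smooth muscle-like cells.

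Astrocyte-like cells were set against OPC-like cells, the 2 glial classes with the most *Hes5*. *Notch2* was higher in astrocyte-like cells by 4.49 ± 0.36 (adjusted p = 3.65e-08), *Notch3* by 2.59 ± 0.61 (adjusted p = 0.0024) and *Hey1* by 0.84 ± 0.24 (adjusted p = 0.0103). *Heyl* was called higher as well, from 70 UMIs against 2, a ratio of 16.4 with a counting interval of 4.38 to 138. Of the ligands, *Dll4* was not called. *Dll1* was lower, at 1.11 and 0.455 CPM in astrocyte-like cells (-4.85 ± 0.37, adjusted p = 3.98e-08), and *Jag1* was lower by -1.27 ± 0.40 (adjusted p = 0.0169), a call lost with DESeq2 (adjusted p = 0.104), without the library term (adjusted p = 0.0675), after thinning (adjusted p = 0.226) and at resolution 0.32 (adjusted p = 0.297). The calls of *Hey1* and *Heyl* were lost after thinning (adjusted p = 0.082 and 0.0639), that of *Hey1* also with library sizes alone (adjusted p = 0.0871) and that of *Heyl* at resolution 0.32 (adjusted p = 0.109). *Notch1*, *Hes1* and *Hes5* were not called. In all 4 members were higher and 2 lower, beside 41.9% of all genes called.

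Between OPC-like and oligodendrocyte-like cells, precursor and mature class of 1 lineage, 6 members were higher in OPC-like cells and 1 lower, beside 51.6% of all genes. *Hes5* (5.24 ± 0.38), *Hes1* (4.23 ± 0.31), *Jag1* (3.29 ± 0.42), *Dll1* (2.93 ± 0.27), *Hey1* (2.20 ± 0.27) and *Notch1* (2.17 ± 0.18) were higher. *Notch2* was lower (-1.55 ± 0.40, adjusted p = 0.00321). It lost its call when library sizes alone set the scale (-0.81, adjusted p = 0.0987), after thinning (adjusted p = 0.0505) and at resolution 0.32 (-0.29, adjusted p = 0.314). At that resolution the OPC-like class also held 274 cells that were oligodendrocyte-like in the main clustering.

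In neuroblast-like against neuron-like cells, 4 members were higher and 1 lower, beside 54.2% of all genes. *Notch1* (3.67 ± 0.27), *Hes5* (2.20 ± 0.49), *Notch2* (1.85 ± 0.42) and *Dll1* (1.29 ± 0.38) were higher and *Hey1* was lower (-1.55 ± 0.34). Libraries 1 and 2 differed in size, at 3.05 and 4.65 for *Notch1*, 1.32 and 4.07 for *Hes5* and 0.75 and 3.16 for *Notch2*. At resolution 0.32 *Hes5* and *Dll1* turned (-0.35 and -0.16, neither called) and *Notch2* lost its call (0.32, adjusted p = 0.55). There the neuroblast-like class no longer held the progenitor-like and ependymal-like cells. The neuron-like class there also held 280 cells that were astrocyte-like in the main clustering. Without clusters that carried other markers, *Hes5* (1.00, adjusted p = 0.123) and *Notch2* (0.64, adjusted p = 0.204) were not called, and after thinning *Hes5*, *Dll1* and *Hey1* were not. Ependymal-like cells, which the neuroblast-like class held, had *Hes5* at 468 and 288 CPM. Their cluster also had 8 of 9 astrocyte markers raised within the class. When the neuroblast-like class was divided, a shallow cluster of 580 cells and 25 cells of no named class were left out. The comparison set 370 progenitor-like cells, with cell-cycle markers, against 523 other neuroblast-like cells. These 523 had 5 of 8 neuroblast markers raised within the class, and also 4 of 8 neuron markers. *Dll1* was at 24.9 and 29 CPM in progenitor-like against 4.56 and 3 CPM (2.45 ± 0.39, adjusted p = 2.22e-05), and *Notch1* at 159 and 183 against 45.6 and 51 CPM (1.84 ± 0.22, adjusted p = 1.85e-07). *Jag1* (1.61 ± 0.46, adjusted p = 0.0087) and *Hes5* (1.38 ± 0.49, adjusted p = 0.0365) were higher too. *Hes5* lost its call without the library term (adjusted p = 0.0733) and with at least 500 genes per cell (adjusted p = 0.107), and *Jag1* and *Dll4* lost theirs after thinning. *Dll4* had 16 UMIs against 0, at least 3.24-fold higher over both libraries. These 5 members were all higher in progenitor-like cells, beside 27.1% of all genes called in either direction.

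The study divided astrocytes by *Crym*, the gene of the thyroid hormone-binding protein μ-crystallin. *Crym*+ cells numbered 543 and 446 and *Crym*- cells 956 and 622 of the astrocyte-like class, with median depths of 2402 and 4980.5 against 1361 and 1779.5 UMIs. Of the 5 members detected in enough cells to be tested, *Hes5* was called, at 698 and 906 CPM in *Crym*+ against 503 and 447 in *Crym*- cells (0.71 ± 0.12, adjusted p = 0.018), beside 3.65% of all genes. Both *Crym*+ libraries lay above both *Crym*- libraries. The call was lost with DESeq2 (adjusted p = 0.313), without the library term (adjusted p = 0.559) and after thinning to 1000 UMIs (0.39, adjusted p = 0.0638). Thinning left out 599 astrocyte-like cells and also set the *Crym* groups anew, at 326 and 317 *Crym*+ cells. The class joined 2 clusters, and *Crym* was among the 10 leading genes of the deeper one. There, at median depths of 8578.5 and 7217 UMIs, 59.5% and 57.4% of cells were *Crym*+, against 30.8% and 31.5% in the other, at 1321 and 1449 UMIs. The part of depth and of cluster in the *Hes5* difference was not tested. *Hes1* was at 115 and 33.6 against 144 and 45.1 CPM (-0.38 ± 0.11, adjusted p = 0.107), lower in *Crym*+ cells within each library.

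**Figure D5:**
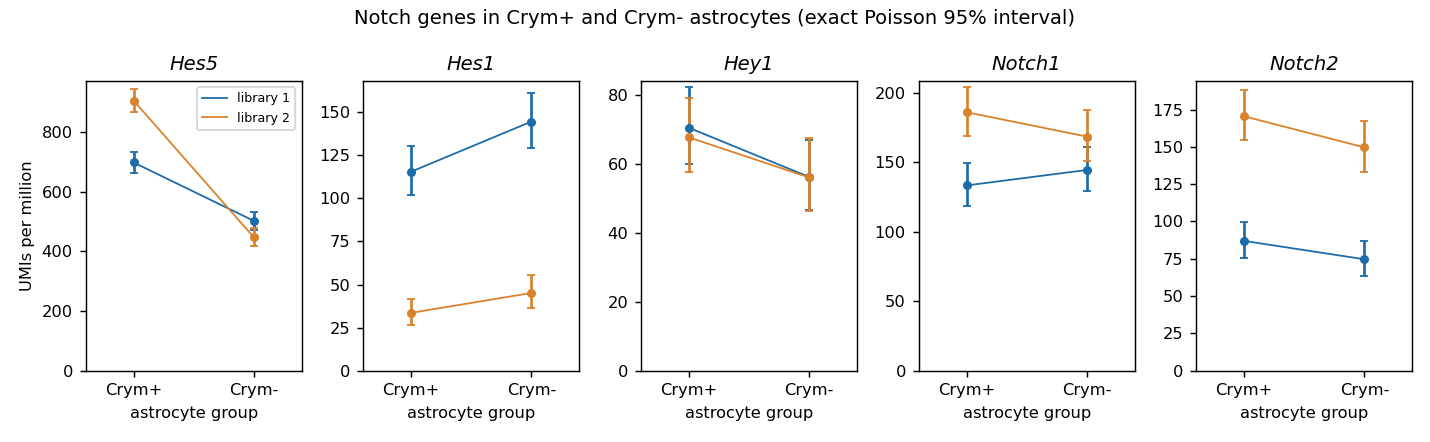
CPM of 5 Notch genes in *Crym*+ and *Crym*- astrocyte-like cells, a line per library, with exact Poisson 95% intervals. *Hes5* rises to the *Crym*+ side in both libraries (698 against 503, 906 against 447).

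Of the 49 other genes of the pathway (other ligands and receptors, processing enzymes, modifiers and further targets), 46 were tested between the main classes. In mural-like against endothelial-like cells 7 were higher and 9 lower, led by *Hey2*, a Hey repressor (5.01 ± 0.37), *Neurl1b*, a ligand-trafficking ubiquitin ligase (3.62 ± 0.58), and *Dtx4*, a Deltex ubiquitin ligase (3.04 ± 0.37). That was 34.8% of the list, beside 27.3% of all genes. In astrocyte-like against OPC-like cells 5 were higher and 8 lower, led by the RBPJ relative *Rbpjl* (-4.92 ± 0.49), the ligand-like *Dll3* (-4.52 ± 0.38) and the Fringe glycosyltransferase *Lfng* (4.37 ± 0.32), or 28.3% of the list beside 41.9% of all genes. In OPC-like against oligodendrocyte-like cells 21 were higher and 11 lower, among them *Dll3* (5.08 ± 0.34) and the feedback gene *Nrarp* (4.69 ± 0.31), or 69.6% beside 51.6%. In neuroblast-like against neuron-like cells 14 were higher and 13 lower, among them *Hes6* (4.26 ± 0.23) and *Dll3* (289 UMIs against 3), or 58.7% beside 54.2%. After thinning, 43 of the list were tested and the 32 calls of the OPC-like pair became 17 and the 27 of the neuroblast-like pair 13.

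Among the divided clusters 45 were tested. Smooth muscle-like cells were higher than pericyte-like cells for 2 and lower for 4, led by *Dtx4* (-3.27 ± 0.61), the endothelial receptor *Notch4* (2 UMIs against 19) and the coactivator *Maml2* (-2.13 ± 0.35). These 6 were 13.3% of the list, beside 15.0% of all genes, and 1 of 29 was called after thinning. Arterial-like cells were higher than capillary-like cells for 2, the ephrin *Efnb2* (1.90 ± 0.36, adjusted p = 0.00229) and the ligand *Jag2* (1.09 ± 0.28, adjusted p = 0.0394), 4.44% of the list beside 1.67% of all genes. The *Jag2* call was lost with DESeq2 and without the library term, and that of *Efnb2* after thinning, so that 1 was left in each. Progenitor-like cells were higher than other neuroblast-like cells for 7 and lower for 6, among them *Neurl1b* (3.44 ± 0.52) and *Jag2* (23 UMIs against 0, at least 4.66-fold). These 13 were 28.9% of the list, beside 27.1% of all genes, and 5 of 29 were called after thinning. Between *Crym*+ and *Crym*- cells edgeR called 0 of 23, with 5 at an unadjusted p under 0.05, and DESeq2 called 0, with 0 at an unadjusted p under 0.05.

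The list's median log2 fold change stood beside that of all genes tested as follows. It was -0.17 against -0.13 in mural-like and endothelial-like cells and -0.16 against -0.02 in astrocyte-like and OPC-like cells. In OPC-like and oligodendrocyte-like cells it was 0.55 against -0.10, and scaling by library sizes alone moved that pair's median of all genes by 0.68. The list's median was 0.06 against 0.07 in neuroblast-like and neuron-like cells and -0.07 against 0.03 in progenitor-like and other neuroblast-like cells. It was -0.12 against -0.01 in smooth muscle-like and pericyte-like, -0.04 against -0.0007 in arterial-like and capillary-like, and 0.04 against -0.006 in *Crym*+ and *Crym*- cells.

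By class, *Notch4* was at 137 and 73.1 CPM and *Jag2* at 191 and 178 CPM in endothelial-like cells, the highest of the 9 classes for both. *Lfng* was at 299 and 250 CPM in astrocyte-like cells, where *Dner*, a transmembrane ligand-like gene, was at 134 and 148. *Dll3* was at 61.3 and 72.6 CPM in OPC-like cells and at 26.6 and 32.4 in neuroblast-like cells. *Rbpj* itself was at 192 and 178 CPM in macrophage-like cells and between 18.7 and 75.7 CPM in the other 8 classes.

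The genes whose levels ran most like each member were sought over 30 sums (15 divided classes in each of 2 libraries), by Pearson's r of log2(CPM + 10), as a description. Sums of 1 library share its depth and preparation. *Heyl* ran with *Vasn* (r = 0.98), *Foxs1* (0.98) and *Cd248* (0.96), and *Notch3* with *Ano1* (0.97), *Foxs1* (0.97) and *Tbx2* (0.96), so that *Foxs1* appeared for both. *Dll4* ran with *Magix* (0.97), *Vsig2* (0.96) and *Ccm2l* (0.95), and *Hes5* with *Rfx4* (0.96), *AW047730* (0.95) and *Dipk1c* (0.95). *Hes1* ran with *Dlc1* (0.93), *Epas1* (0.92) and *Ginm1* (0.89), and *Jag1* with *Plekhg2* (0.90), *Tgfb1i1* (0.89) and *Ehd2* (0.89). Values were lower for *Notch2* with *Sdc4* (0.88) and *Selenbp1* (0.82), *Notch1* with *Hmg20b* (0.86), *Cnbp* (0.82) and *Cdc42ep4* (0.80), *Dll1* with *Ankrd11* (0.86), *Gsx1* (0.81) and *Fip1l1* (0.80), and *Hey1* with *Lurap1* (0.81), *Mtmr11* (0.76) and *Nog* (0.75).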

How the data were processed

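Single-cell RNA was measured in 2 libraries of mouse striatum. The authors deposited raw UMI counts per gene and cell, made with Cell Ranger on mm10. The submitters' processing notes and the matrix headers name version 4.0, and the methods of the paper name another. Cells with at least 300 detected genes were kept, doublets marked by Scrublet (scanpy 1.11.5, expected rate 6%) were removed (1.39% and 2.96%), and Seurat 5.3.0 in R 4.3.3 integrated the libraries (2000 variable genes, 30 principal components) and clustered cells at resolution 0.08. The study's own cell annotation was not used here, so a difference from the study may come from the rebuilt names. A cluster was named where at least 3 markers of a class were raised 2-fold. The capillary-like cluster met no such fold and was named because 4 of its 7 markers were at their highest there among the endothelial clusters of sufficient depth. Endothelial-like, mural-like and neuroblast-like cells were clustered again by themselves.

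Counts were summed per library and class and fitted with edgeR 4.0.16 (TMM factors, quasi-likelihood test, prior count 2), with the library as a block, since all sums of a library come from 1 cell suspension. DESeq2 1.42.0 and other settings were alternatives. Leaving out clusters with markers of another class, and leaving genes at 0 in a whole class out of the tests against the other classes, were chosen after seeing the data, as were the limits for naming clusters. For *Crym* groups, cells were *Crym*+ where the natural log value was above 0.25, and genes detected in at least 10% of either group were tested. Data were simulated with the 2 classes of a pair set to the average of their real means. The simulated data held no shift between libraries, and their spread came from a fit without the library term. In this they differ from the real data, which were tested with the library as a block. Changed genes were drawn from those with enough expected counts, so the recovery does not cover genes with few counts. The mural-like against endothelial-like test recovered 28% of genes changed 2-fold and 81% of those changed 4-fold, and called 13 of 15194 unchanged genes. The smooth muscle-like against pericyte-like test recovered 21% and 74%, and called 4 of 14070. A total of 3 counts was the floor against a class at 0. Intervals, exact Poisson for levels, cover counting error only.

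The members and the lists were chosen with earlier results of these data known. Named genes were all 10 members, the 3 other pathway genes per comparison with the largest called change in the same direction in both libraries, and the 3 genes most like each member. Some genes that this rule names are not reported here.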

Additional observations from a re-analysis of the deposited data

How the results depend on the processing

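Under the settings that keep both libraries, 903 of the values for called members kept direction and call, 79 lost the call and 9 turned. Of those not called, 298 stayed, 27 became called and 19 turned. The values that stayed include 55 from leaving out genes at 0 in a whole class, which kept the main fit. They also include 5 from setting *Crym*+ at 1 or more UMIs, which gave groups of the same size. These 2 settings were no real check. The tally also holds the tests of *Dll1* and *Dll4* against the other classes, whose calls carry no weight. Leaving out either library turned no called value, but moved 32 values (without library 1) and 13 (without library 2) by more than the SD between libraries. With 2 libraries this gives only the fold change of the library kept, so it is no separate check of the calls. The count called in neuroblast-like against neuron-like cells, 5, was 8 with all genes of at least 1 UMI, 2 after thinning and 2 at resolution 0.32, and that in progenitor-like against neuroblast-like cells, 5, was 2 after thinning. The *Crym* count, 1, was 0 with DESeq2, 0 without the replicate block and 0 after thinning (in each, 1 at an unadjusted p under 0.05), and 2 with doublets kept, with at least 500 genes and with under 20% mitochondrial UMIs, where *Hes1* joined. The block moved no other count of members by over 1.5 times. Without it, calls among all genes in arterial-like against capillary-like cells went from 237 to 140, and in the pathway list from 2 to 1, and those among all genes between *Crym* groups from 218 to 1. The highest class was the same for 7 of 10 members after thinning. The cause was not tested in any of these.

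Called values that turned at resolution 0.32 were *Hes5* (-0.35) and *Dll1* (-0.16) in neuroblast-like against neuron-like cells, *Jag1* in OPC-like cells against the others (-0.054), and *Notch1* (-0.75, adjusted p = 0.00101), *Jag1* (-0.64) and *Hes5* (-1.21, adjusted p = 0.0352) in neuroblast-like cells against the others, where *Hes5* was -0.35 without clusters with other markers. *Hey1* in mural-like cells against the others was -0.44 after thinning and -0.48 without such clusters. At resolution 0.32 progenitor-like and ependymal-like cells stood outside the neuroblast-like class, among the others. The neuron-like class then also held 280 formerly astrocyte-like cells, and the OPC-like class 274 formerly oligodendrocyte-like cells. Uncalled values that turned after thinning were *Notch1* (0.30) in mural-like against endothelial-like cells, *Dll4* (0.37) and *Heyl* (-0.28) in neuroblast-like against neuron-like, *Dll4* (-0.80) and *Hey1* (1.11) in smooth muscle-like against pericyte-like, *Dll4* (0.32), *Notch2* (0.43) and *Hes5* (-1.12) in arterial-like against capillary-like, and *Notch2* (-1.07) and *Notch3* (-0.0052) in progenitor-like against neuroblast-like cells. At resolution 0.32 *Heyl* (2.17, then called) and *Notch3* (-0.070) turned in OPC-like against oligodendrocyte-like cells and *Heyl* (-0.17) in neuroblast-like against neuron-like. With at least 500 genes *Heyl* (0.043), *Dll4* (0.10, arterial-like) and *Notch3* (-0.25, progenitor-like) turned. *Hes5* was 0.051 in mural-like against endothelial-like cells without clusters with other markers, *Notch1* -0.11 in astrocyte-like against OPC-like with library sizes alone, and *Notch1* 0.080 between *Crym* groups with all genes.

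Scaling by library sizes alone moved the median of all genes by 0.68 in OPC-like against oligodendrocyte-like (45.5% of calls higher became 81.5%), by -0.34 in smooth muscle-like against pericyte-like (57.6% became 30.6%), by -0.31 in astrocyte-like against OPC-like (45.8% became 26.7%), by 0.12 in mural-like against endothelial-like (44.7% became 55.1%) and by -0.15 in neuroblast-like against neuron-like cells. In tests against the other classes the share of calls that were higher went from 55.0% to 80.9% (OPC-like), 47.5% to 65.5% (neuron-like), 54.7% to 41.7% (macrophage-like), 61.1% to 37.5% (microglia-like) and 60.1% to 35.4% (oligodendrocyte-like). Arterial-like against capillary-like cells could not be fitted with doublets kept, under 20% mitochondrial UMIs or at double resolution, nor progenitor-like against neuroblast-like in the last 2.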

Other observations

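Ependymal-like cells (96) had *Notch2* at 144 and 228 CPM, *Notch1* at 132 and 112, *Hey1* at 68.5 and 49.4 and no UMI of *Dll4*. Fibroblast-like cells (51) had *Notch2* at 131 and 183 CPM, *Jag1* at 51.3 and 132 and *Heyl* at 74.1 and 22. They gave no UMI of *Dll1* or *Dll4*, and *Notch3* had 7 UMIs in library 1 and none in library 2. Ependymal-like cells were counted in the neuroblast-like class and fibroblast-like cells in the mural-like class in the comparisons of classes.

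In the 97 erythroid-like cells, 6 and 1 UMIs of *Notch1* and 10 and 3 of *Hes5* were counted, and none of *Dll1*, *Dll4*, *Jag1*, *Hey1* or *Heyl*.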
